A study of Homo sapiens with 4 samples.

Results

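The collagen genes were examined in A549, a human lung adenocarcinoma cell line, in a control library and in a library of cells depleted of RBM4, whose product binds RNA and acts in splicing and translation. The members were chosen by name alone, as every gene symbol made of COL, a number, A and a number, which gave 44 genes of the 19732 in the table. No measured value entered the choice of single members, but the family was taken up because earlier results of these data had shown some collagens to be higher. The series holds 4 samples, 1 control and 1 knockdown library each of A549 and of H1299, another human lung cancer line, and asks which genes differ when RBM4 is reduced. The H1299 samples were not analysed here, because the 3 columns of values in their table carry names that match no label. Of the 2 A549 columns, the one named only for the line was taken to be the control and the one with an added number, absent from the labels, to be the knockdown, and the direction of every difference depends on this. Both groups were A549 cells grown in serum-containing medium as far as the labels say, and the knockdown sample has "sh" in its title. The labels describe neither the construct, the duration of the knockdown nor the control, and they do not say whether a pool of cells or a clone was sequenced.

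Collagens are matrix proteins built from 3 chains wound around each other, and each chain is a long repeat in which each glycine is followed by 2 other residues. Fibrillar collagens form the rope-like fibres of connective tissue, type IV collagens form the sheet on which epithelia rest, and other types bridge, anchor or decorate these structures. Most collagen in lung tissue is made by fibroblasts, while epithelial cells contribute chains of the basement membrane and its anchors. The repeat is visible in the coding sequence as GGN, the glycine codons, each followed by 2 other codons. It is shown here, with GGN in capitals, in a stretch of 3 of the genes with the highest differences, from GENCODE release 29 transcripts on hg38. The COL4A1 stretch lies in exon 3 (chr13:110213971-110214015, minus strand), the COL5A1 stretch in exon 14 (chr9:134752601-134752645, plus strand) and the COL7A1 stretch in exon 102 (chr3:48569402-48569446, minus strand), and all are coding.
COL4A1: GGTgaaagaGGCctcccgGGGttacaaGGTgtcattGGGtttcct
COL5A1: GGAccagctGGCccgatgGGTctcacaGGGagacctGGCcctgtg
COL7A1: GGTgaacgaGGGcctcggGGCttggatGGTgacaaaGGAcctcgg

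Collagen transcripts were more abundant in the knockdown library. Summed over all 44 genes, they came to 246.7 FPKM in control cells and 811.9 FPKM after knockdown, 3.29 times as much, or 0.0367% and 0.130% of all FPKM. FPKM is a level that corrects for transcript length and library size. Of the 44 genes, 31 were higher and 3 lower in the knockdown library at any size of difference, and 10 were listed at 0 in both. Over all 19732 genes, 40.3% were higher and 38.8% lower. These are bulk libraries, in which more cells expressing a gene and more RNA per cell cannot be told apart.

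Of the 44 genes, 18 reached 1 FPKM in either library. Differences are given as log2 after adding 1 FPKM to each level, knockdown minus control, which makes the differences of low genes look smaller than they are. On this scale 11 of the 18 were higher by at least 2-fold and none was lower by that much. Among the 12230 genes that reached 1 FPKM, 4.96% were higher and 2.25% lower by 2-fold. Set against all 44 members the 11 genes compare with 3.08% of all 19732 genes. Of the 18, 17 were above 0 at any size, where 46.6% of the 12230 genes were. Since the family was taken up for this difference, these counts describe it and support nothing. The median difference of the 18 collagen genes was 1.11, beside -0.04 over all these genes. COL11A1 and COL22A1 reached 1 FPKM only in the knockdown library and so had to be higher. Of the 16 collagen genes that reached it in the control, 9 were higher by 2-fold, against 3.66% of all genes kept in that way. At 4-fold the count was 3, against 0.711% of all genes. With a single library on each side, replicate error is unknown and no test was made. The split of all 2-fold genes was 68.8% higher as deposited, 78.6% after rescaling both libraries to 1 total and 82.2% with mitochondrial genome genes left out, and the all-gene median was 0.06 and 0.11 in these cases. The 2-fold collagen count was 12 in both of those cases.

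**Figure D1:**
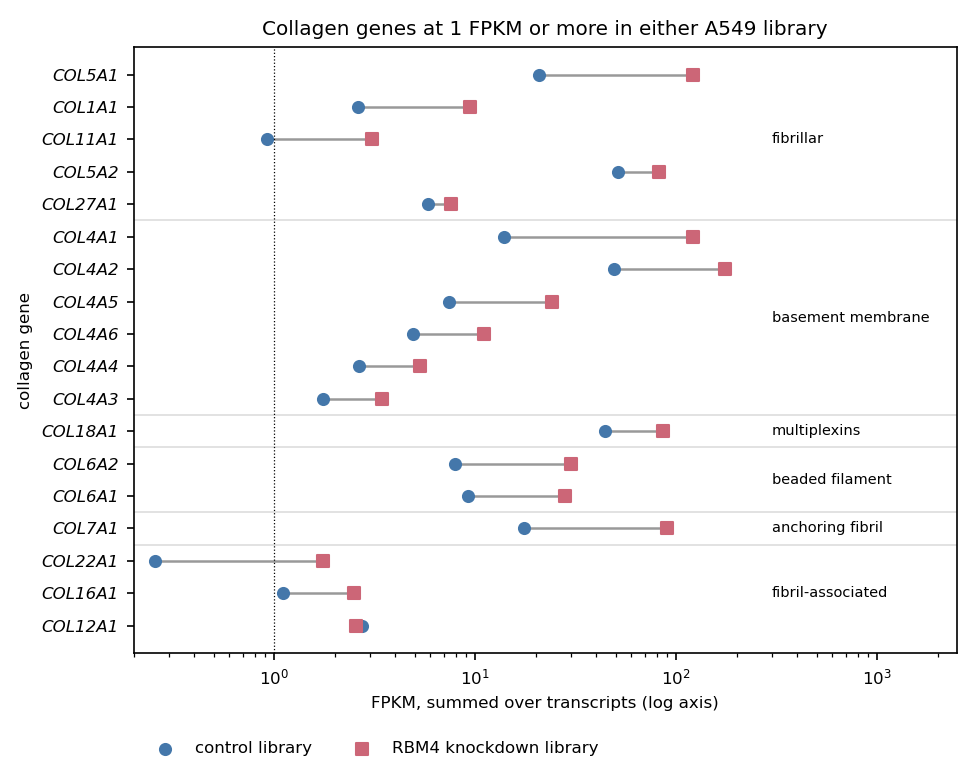
Level of each collagen gene that reached 1 FPKM in either A549 library, in FPKM on a log axis, with circles for the control and squares for the RBM4 knockdown library, 1 library each, ordered by family and by difference. The square lies to the right of the circle for 17 of the 18 genes, and COL12A1 is the exception.

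The basement membrane collagens, type IV, had the largest summed level in the knockdown library. All 6 chains reached 1 FPKM, all 6 were higher in the knockdown library, and 4 were higher by at least 2-fold. Among all genes kept, 4.96% were higher by 2-fold. The sum of the 6 chains was 79.7 FPKM in control cells and 341 FPKM after knockdown. This took their share of all collagen FPKM from 32.3% to 42.0%. COL4A1 (chr13:110148963-110307233, minus strand, hg38) had 13.98 FPKM in control cells and 121 FPKM after knockdown, 8.66 times as much and a log2 difference of 3.03. This was the highest difference of the family, and 0.155% of all genes kept had a higher one. COL4A2 (chr13:110305812-110513209, plus strand), whose chain joins that of COL4A1 in the common type IV trimer, had 48.9 FPKM in control cells and 176.0 FPKM after knockdown (1.83). It was the most abundant collagen gene of the knockdown library. Exons of COL4A2 overlap 2 antisense genes, those of COL4A3 and COL16A1 overlap 1 each, and a strand setting is not given in the sources used here, so a share of their reads is uncertain.

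The other type IV chains were lower in level and differed less. COL4A5, the X-linked chain whose mutation causes Alport syndrome, had 7.45 FPKM in control cells and 24.2 FPKM after knockdown (1.57). COL4A6, its head-to-head neighbour, had 4.94 FPKM in control cells and 11.04 FPKM after knockdown (1.02), just past 2-fold, and 0.87 with its highest transcript alone. COL4A4 had 2.64 and 5.35 FPKM (0.80) and COL4A3 had 1.75 and 3.46 FPKM (0.70). These last 2 chains form the trimer of the kidney filter and of alveolar basement membrane together with that of COL4A5, and they were under 2-fold on the scale used. Their FPKM ratios without the added 1 were 2.02 and 1.98.

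Type IV genes lie in 3 head-to-head pairs, in which 2 genes are read outward from a shared stretch of DNA, and the sequence of these stretches is shown because both genes of each pair were higher in the knockdown library. The starts of the most abundant transcripts of COL4A1 and COL4A2 (ENST00000375820 and ENST00000360467) lie 2 bases apart in GENCODE release 29, and the RefSeq starts lie 126 bases apart. For COL4A4 and COL4A3 these distances are 328 and 418 bases. For COL4A6 and COL4A5 they are 1493 and 379 bases: the most abundant COL4A6 transcript, ENST00000334504, starts further away, and the stretch shown lies between the COL4A5 start and that of ENST00000372216, which held 10.2% of COL4A6 FPKM in control cells and 12.8% after knockdown. For COL4A1 and COL4A2, 30 bases around the transcript starts are shown (chr13:110307220-110307249), with the 2 bases between these starts in capitals. The 484-base COL4A2 model ENST00000400163 starts elsewhere, inside COL4A1 at chr13:110305812. It held 26.8% of COL4A2 FPKM in control cells and 22.8% after knockdown. For the other pairs, capitals mark matches on either strand to the letters of 5 motifs. The GC box was searched as GGGCGG and the CCAAT box by the letters of its name. The TATA box was searched as TATAAA, the site of the AP-1 factors as TGANTCA, and the site that TEAD factors bind as GGAATG. The COL4A3 and COL4A4 stretch (chr2:227164454-227164564) and the COL4A5 and COL4A6 stretch (chrX:108439588-108439837) overlap no annotated exon. All are given on the plus strand from RefSeq promoter windows, build GRCh38.p14. The CCAAT letters occur in forward and in reverse near the start of the COL4A5 and COL4A6 stretch, and a GC box lies in the COL4A3 and COL4A4 stretch.
COL4A1 and COL4A2: ggcggcgcctcaaaGGggaggaccctgcgg
COL4A3 and COL4A4: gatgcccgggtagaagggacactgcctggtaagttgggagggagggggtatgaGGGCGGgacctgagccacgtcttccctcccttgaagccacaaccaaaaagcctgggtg
COL4A5 and COL4A6: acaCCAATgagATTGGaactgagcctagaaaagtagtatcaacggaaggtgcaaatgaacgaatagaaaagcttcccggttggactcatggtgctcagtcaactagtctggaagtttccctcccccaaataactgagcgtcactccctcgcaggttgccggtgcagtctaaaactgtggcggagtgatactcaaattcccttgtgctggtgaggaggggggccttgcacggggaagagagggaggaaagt

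Within each pair the 2 genes did not keep the same proportion in every case. COL4A2 stood at 3.50 times the FPKM of COL4A1 in the control and at 1.45 times in the knockdown library, so the levels of the 2 chains lay closer together there. With transcripts under 1000 bases left out these ratios were 2.561 and 1.122. The ratio of COL4A4 to COL4A3 was 1.51 in control cells and 1.55 after knockdown. That of COL4A5 to COL4A6 was 1.51 and 2.19, but it was 1.36 and 1.27 without the short transcripts, and its direction turned. With the highest transcript of each gene in each library it was 0.92 and 1.06. For COL4A5 that transcript was ENST00000361603 in control cells and the 537-base ENST00000505728 after knockdown, so these 2 ratios rest on different transcripts.

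The fibrillar collagens were led by type V. Of 11 genes, 5 reached 1 FPKM, all 5 were higher in the knockdown library and 3 were higher by at least 2-fold. COL11A1, 1 of the 3, reached 1 FPKM only in the knockdown library and so had to be higher. Among all genes kept, 4.96% were higher by 2-fold. The sum of the 11 genes went from 81.9 to 225 FPKM. COL5A1 (chr9:134641774-134844843, plus strand), whose chain starts and limits the width of type I fibrils, had 20.7 FPKM in control cells and 121.9 FPKM after knockdown (2.50). COL5A2, which supplies the partner chain, had 51.4 FPKM in control cells and 82.1 FPKM after knockdown (0.66). COL5A2 was the most abundant collagen gene of the control library and did not reach 2-fold. The ratio of COL5A2 to COL5A1 was 2.48 in control cells and 0.67 after knockdown. The common type V trimer holds more COL5A1 than COL5A2 chains.

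The major fibril collagens of connective tissue were low or not detected. COL1A1 (chr17:50183289-50201632, minus strand), which encodes the main chain of type I collagen, had 2.61 FPKM in control cells and 9.47 FPKM after knockdown (1.54). Its partner COL1A2 was listed at 0 in control cells and at 0.00995 FPKM after knockdown, so transcripts of 1 of the 2 chains of ordinary type I collagen were nearly absent from both. COL3A1, of the thin fibres of skin and vessels, had 0.0274 and 0.0388 FPKM, and the cartilage gene COL2A1 was listed at 0 in both. COL11A1, a minor fibrillar chain, had 0.928 FPKM in control cells and 3.09 FPKM after knockdown (1.08). COL27A1, which has a shorter repeat, had 5.84 and 7.56 FPKM (0.32). COL11A2, COL24A1 and COL5A3 stayed under 1 FPKM in both libraries and each was listed higher in the knockdown library.

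COL7A1 encodes the anchoring fibril that ties the basement membrane of skin and other stratified epithelia to the tissue below. COL7A1 (chr3:48564073-48595267, minus strand) had 17.5 FPKM in control cells and 90.6 FPKM after knockdown, 5.17 times as much (2.31). Only COL4A1 and COL5A1 had higher differences among the 18 genes. COL4A1, COL5A1, COL7A1 and COL4A2, the 4 genes with the highest differences, made up 41.0% of collagen FPKM in control cells and 62.7% after knockdown. The sum of the other 40 genes was 145.6 FPKM in control cells and 302.4 FPKM after knockdown, 2.08 times as much.

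The beaded filament collagen, type VI, forms a fine network beside basement membranes from the chains of COL6A1 and COL6A2 and of a longer partner. COL6A1 (chr21:45981737-46005050, plus strand) had 9.19 FPKM in control cells and 27.97 FPKM after knockdown (1.51). COL6A2 (chr21:46098097-46132849, plus strand), 93046 bases further on, had 7.95 FPKM in control cells and 29.96 FPKM after knockdown (1.79). The 2 genes kept similar levels, with a ratio of COL6A2 to COL6A1 of 0.87 in control cells and 1.07 after knockdown. COL6A3, the usual longer partner, had only 0.0370 FPKM in control cells and 0.318 FPKM after knockdown. The alternative partners COL6A5 and COL6A6 were listed at 0 in both.

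Upstream sequence is shown for the 3 genes outside type IV that were among the 6 highest differences of the family, so that it can be set beside the type IV stretches. The bases end just before the GENCODE start of COL5A1 and COL6A2 and just before the RefSeq start of COL7A1. Distances from motifs to a start are therefore not comparable across the 3 genes. The stretches overlap no annotated exon and carry capitals for the same motifs. They come from chr9:134641553-134641773 (plus strand) for COL5A1, chr3:48595330-48595579 (minus strand) for COL7A1 and chr21:46097862-46098096 (plus strand) for COL6A2, build GRCh38.p14. COL6A2 has a TATA box between GC boxes close to its start, COL7A1 has a TATA box further out with GC boxes between it and the start, and COL5A1 has GC boxes alone.
COL5A1: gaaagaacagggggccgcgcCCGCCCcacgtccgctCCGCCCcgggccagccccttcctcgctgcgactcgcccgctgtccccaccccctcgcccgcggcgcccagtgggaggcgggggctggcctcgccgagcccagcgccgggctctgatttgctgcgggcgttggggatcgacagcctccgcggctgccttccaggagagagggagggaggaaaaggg
COL7A1: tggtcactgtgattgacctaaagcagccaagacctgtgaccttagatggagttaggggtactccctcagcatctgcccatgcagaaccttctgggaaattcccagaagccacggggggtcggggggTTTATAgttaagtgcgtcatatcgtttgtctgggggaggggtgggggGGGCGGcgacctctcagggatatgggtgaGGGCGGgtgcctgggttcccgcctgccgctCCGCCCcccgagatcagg
COL6A2: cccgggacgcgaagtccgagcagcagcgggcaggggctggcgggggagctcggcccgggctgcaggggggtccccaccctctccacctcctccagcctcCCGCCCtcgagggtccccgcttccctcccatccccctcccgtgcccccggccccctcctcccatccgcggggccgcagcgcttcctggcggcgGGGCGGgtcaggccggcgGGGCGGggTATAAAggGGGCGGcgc

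Windows from 250 bases before to 50 bases after a start were found for 32 of the 44 collagen genes, 44 windows in all. The GC box letters occurred in 24 of the 44 windows and in 44.95% of all 35116 windows, and the CCAAT letters in 14 and in 34.6%. The TATA box was found in 8 collagen windows (11.5% of all windows). The AP-1 letters were found in 1 collagen window (7.71%), that of COL10A1, and the TEAD letters in 3 (14.03%). Matches were counted on both strands with overlaps allowed, and they are descriptions of letters. Some collagen windows overlap, among them those of COL5A1, of COL4A1 and COL4A2, and of COL4A5 and COL4A6. The same letters can therefore be counted more than once. The median GC content of the collagen windows was 63.7%, beside 58.7% over all windows, and it ran from 32.3% in 1 window of COL10A1, listed at 0 in both libraries, to 86.7% in 1 window of COL18A1.

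COL18A1 (chr21:45405137-45513720, plus strand), a multiplexin of basement membranes whose end fragment is endostatin, was already abundant in the control. It had 44.4 FPKM in control cells and 86.1 FPKM after knockdown (0.94), just short of 2-fold. The difference was 1.05 after rescaling and 1.10 with mitochondrial genome genes left out, both past 2-fold. The transcript ENST00000400337, which has the most upstream start of its listed transcripts, held 94.0% of its FPKM in control cells and 93.0% after knockdown. COL15A1, the other multiplexin, had 0.0511 and 0.812 FPKM. Exons of COL18A1 overlap those of SLC19A1 on the other strand, so part of its level is uncertain.

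Fibril-associated collagens, which sit on the surface of fibres, were few and low. Of 10 genes, 3 reached 1 FPKM. COL22A1, of tissue junctions, had 0.254 FPKM in control cells and 1.76 FPKM after knockdown (1.14). COL16A1 had 1.10 FPKM in control cells and 2.50 FPKM after knockdown (0.73), and COL12A1 had 2.74 and 2.56 FPKM (-0.07). COL12A1 was the 1 gene of the 18 below 0, and its difference was 0.01 after rescaling and 0.05 with mitochondrial genome genes left out. Of the other 7 genes, COL14A1, COL19A1 and COL9A1 were listed at 0 in both libraries, and COL20A1, COL21A1, COL9A2 and COL9A3 were listed higher in the knockdown library, at 0.495 FPKM or less.

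No network collagen of short chains and no transmembrane collagen reached 1 FPKM. COL8A1 and COL10A1 were listed at 0 in both libraries, and COL8A2, found in the cornea, had 0.157 and 0.275 FPKM. Among transmembrane collagens, COL17A1, the hemidesmosome collagen of epithelia, had 0.809 FPKM in control cells and 0.655 FPKM after knockdown, and COL13A1 had 0.212 and 0.850 FPKM. COL23A1 and COL25A1 were listed at 0 in both. COL26A1 had 0.216 and 0.136 FPKM and COL28A1 had 0.0246 and 0.166 FPKM. In all, 26 collagen genes stayed under 1 FPKM in both libraries, of which 14 were listed higher and 2 lower in the knockdown library, COL17A1 and COL26A1. Over all 19732 genes, at any level, 40.3% were higher and 38.8% lower. The share over genes under 1 FPKM alone was not computed, so these counts are descriptions only. COL17A1 was listed higher once transcripts under 1000 bases were left out.

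**Figure D2:**
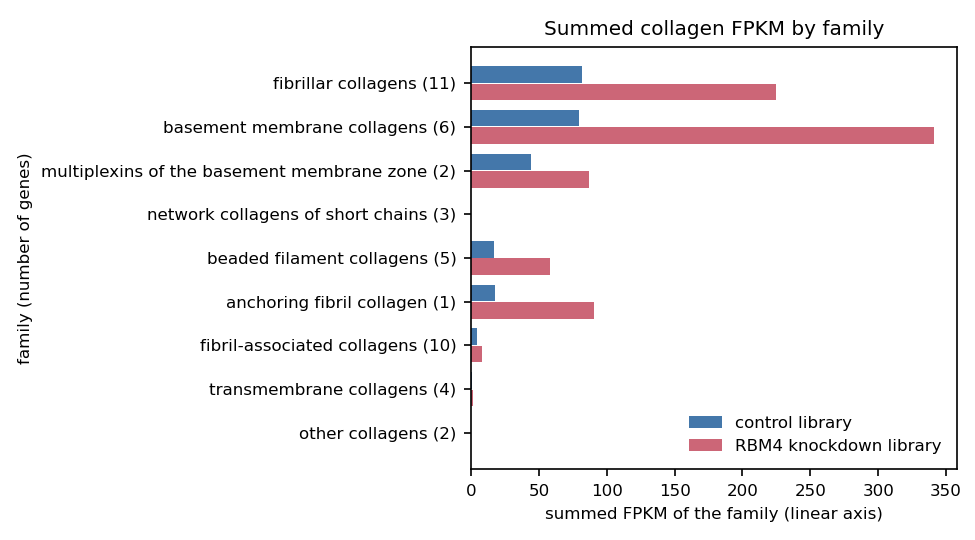
Summed FPKM of each collagen family on a linear axis that starts at 0, with 1 bar for the control and 1 for the RBM4 knockdown library and the number of genes in brackets. The basement membrane bars stand at 79.7 and 341 FPKM and the fibrillar bars at 81.9 and 225 FPKM, while the network, transmembrane and other families are close to 0.

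**Figure D3:**
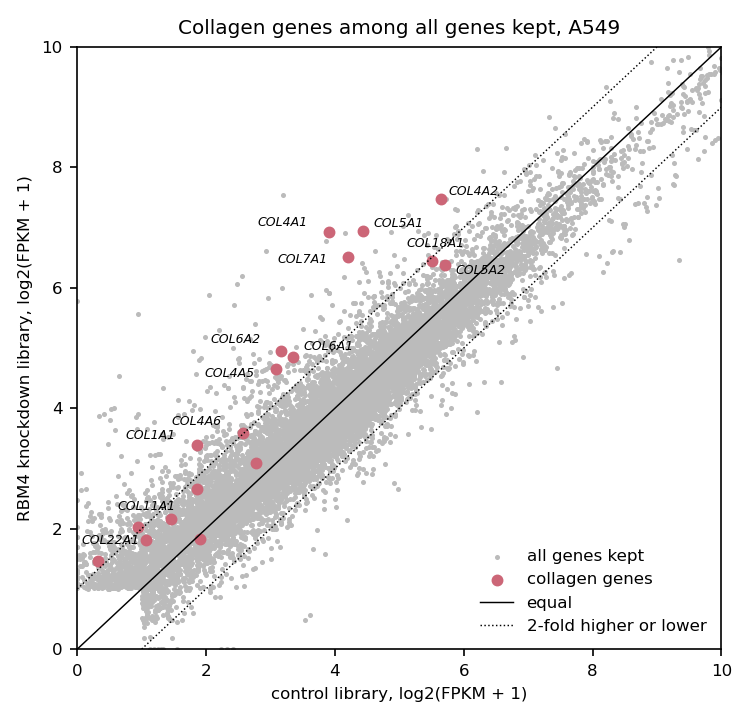
Level of each of the 12230 genes that reached 1 FPKM, as log2(FPKM + 1) in the control library (horizontal) and the RBM4 knockdown library (vertical), with the 18 collagen genes in red, 13 of them named, lines for equal and 2-fold levels, and genes above 10 not drawn. Of the 18 collagen genes, 11 lie above the upper dotted line.

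The members share the repeat of their coding sequence but not its length. In the longest coding transcript of each gene, the longest unbroken in-frame run of GGN followed by 2 codons ran from 23 units in COL26A1 to 343 units in COL3A1, with a median of 60.5 over the 44 genes. The 11 fibrillar genes had 216 to 343 units, and the 6 type IV genes, whose repeat is interrupted, had 38 to 66. The 11 genes higher by 2-fold covered nearly that whole span, from 38 units in COL4A6 to 338 units in COL1A1, COL5A1 and COL11A1. The 7 genes kept but short of 2-fold had 30 to 339 units. COL1A1 and COL1A2, with 338 and 339 units, had levels that differed as described above.

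The FPKM of a gene is a sum over its transcript models, and for some collagens much of the sum came from short models. COL4A1 and COL6A1 had no FPKM from transcripts under 1000 bases, and their differences were the same without them. The 2 COL6A1 models were unlike, with 6.06 and 24.9 FPKM (1.87) for ENST00000361866 and 3.12 and 3.11 FPKM (-0.006) for ENST00000612273. COL4A2 had 35.8 and 135.8 FPKM in longer transcripts (1.89), COL5A1 had 19.4 and 121.9 FPKM (2.59) and COL7A1 had 12.4 and 61.96 FPKM (2.23). In COL1A1, the short model ENST00000507689, with 4 exons, held 79.5% of the FPKM in control cells and 55.1% after knockdown. The full-length COL1A1 transcript ENST00000225964 had 0.535 FPKM in control cells and 4.25 FPKM after knockdown (1.77).

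COL4A5 had a large short part after knockdown. Its 6427-base transcript ENST00000361603 had 4.08 FPKM in control cells and 9.51 FPKM after knockdown (1.05), past 2-fold on its own. The 537-base ENST00000505728 had 0.713 FPKM in control cells and 9.52 FPKM after knockdown, where it held 39.4% of the FPKM of COL4A5. Without transcripts under 1000 bases, COL4A5 had 6.74 FPKM in control cells and 14.04 FPKM after knockdown, a difference of 0.96, just under 2-fold. COL11A1 also was under 2-fold without short transcripts (0.94), COL22A1 was under 1 FPKM in both libraries (0.0569 and 0.870 FPKM), and COL16A1 differed by 0.20. COL17A1, lower in the sum over all models, was higher without the short ones, at 0.0759 FPKM in control cells and 0.655 FPKM after knockdown. That left 8 of 17 collagen genes higher by 2-fold and none lower. Over all genes kept in that way, 506 of 11448 were higher and 190 lower by 2-fold. Of the 32 collagen transcripts at 1 FPKM or more in either library, from 17 genes, 29 were higher in the knockdown library and 15 were higher by 2-fold. Of all 30157 transcripts at that level, 46.8% were higher, 8.63% higher by 2-fold and 8.24% lower by 2-fold. The 1 transcript lower by 2-fold was ENST00000371820 of COL5A1, a 628-base model with 1.30 FPKM in the control, listed at 0 in the knockdown library. Some of the 32, among them ENST00000225964 of COL1A1 and ENST00000505728 of COL4A5, reached 1 FPKM only in the knockdown library and so had to be higher. Transcripts of 1 gene share reads and are not replicates.

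**Figure D4:**
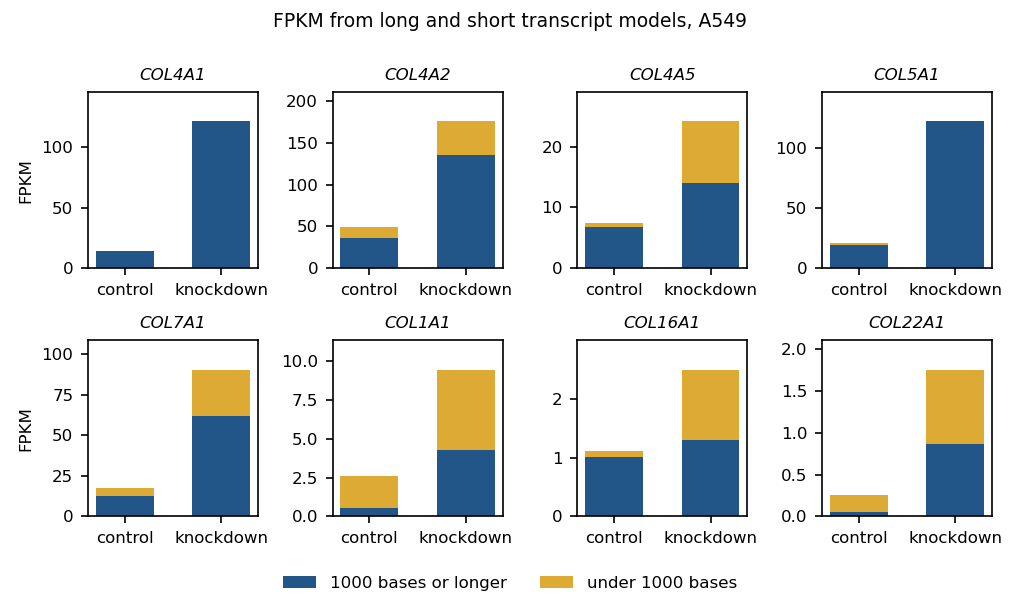
FPKM of 8 collagen genes in the control and RBM4 knockdown libraries, on linear axes that start at 0 and differ between panels, split into transcripts of at least 1000 bases (blue) and shorter ones (yellow). COL4A1 has no yellow part, whereas in COL4A5 the long part is 6.74 and 14.04 FPKM and the rest of the knockdown bar, 10.1 FPKM, is short models.

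Enzymes that modify collagen chains in the endoplasmic reticulum mostly differed by less than 2-fold. Of 15 listed genes of prolyl and lysyl modification, 14 reached 1 FPKM and 12 of these were above 0. By 2-fold, 2 were higher and none was lower, and the median was 0.26. Among all genes kept, 4.96% were higher and 2.25% lower by 2-fold. P4HA3, a catalytic subunit of prolyl 4-hydroxylase, had 4.72 FPKM in control cells and 25.9 FPKM after knockdown (2.24), and P4HA2, another such subunit, had 19.7 and 47.8 FPKM (1.24; 0.90 with its highest transcript alone). P4HA1, the catalytic subunit that was not higher by 2-fold, had 12.2 and 13.0 FPKM (0.08), and their shared partner P4HB had 257 and 273 FPKM (0.09). After P4HA3 and P4HA2, the highest differences were those of P3H2 (0.87), P3H3 (0.77) and PLOD2 (0.51). The lowest were COLGALT1, which adds galactose to hydroxylysine, at 37.9 and 27.0 FPKM (-0.48), and P3H4 (-0.04). The difference of P3H4 was 0.06 after rescaling, 0.11 with mitochondrial genome genes left out, 0.28 with the highest transcript alone and 0.16 without short transcripts.

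In folding and export, 11 of 12 genes reached 1 FPKM, 2 were higher by 2-fold and none lower, with a median of 0.41. The share higher by 2-fold over all genes kept was 4.96%. SPARC, a matrix protein that binds collagen, had 2.50 FPKM in control cells and 15.7 FPKM after knockdown (2.25), and SEC24D, of the coat of transport vesicles, had 6.03 and 14.2 FPKM (1.11). The dedicated collagen chaperone SERPINH1 had 33.97 and 45.5 FPKM (0.41), and MIA3, which loads procollagen for export, had 28.9 and 27.7 FPKM (-0.06). The lowest beside MIA3 was PREB (-0.05). The difference of MIA3 was 0.05 after rescaling and 0.10 with mitochondrial genome genes left out, and that of PREB was 0.06 and 0.11. Of 10 procollagen processing genes, 3 reached 1 FPKM, with a median of 0.57, and BMP1, which removes the end piece of fibrillar procollagens, had 24.6 FPKM in control cells and 76.2 FPKM after knockdown (1.59). Its enhancers PCOLCE and PCOLCE2 differed by 0.57 and -0.14, the latter 0.01 with mitochondrial genome genes left out. ADAMTS2, ADAMTS3 and ADAMTS14, which cut the other end, were under 1 FPKM in both libraries.

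Cross-linking enzymes join collagen chains after their secretion. Of 7 cross-linking genes, 4 reached 1 FPKM, all 4 were higher, 2 of them by 2-fold, and the median was 1.26. Over all genes kept, 4.96% were higher by 2-fold. TGM2, a transglutaminase, had 72.9 FPKM in control cells and 316 FPKM after knockdown (2.10), and PXDN, the peroxidase that links type IV collagen chains, had 4.18 and 15.3 FPKM (1.65). LOXL2 had 66.4 and 122 FPKM (0.87; 1.03 with mitochondrial genome genes left out) and LOXL4 differed by 0.75 (1.15 with a pseudocount of 0.1 FPKM), while LOX itself, the lysyl oxidase of fibrils, was under 1 FPKM in both.

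Of 11 collagen receptor genes, 6 reached 1 FPKM, with 3 higher by 2-fold, none lower and a median of 1.07. ITGA1 reached 1 FPKM only in the knockdown library and so had to be higher. Of the 5 genes that reached it in the control, 2 were higher by 2-fold, with a median of 0.85. Over all genes, 4.96% of those at 1 FPKM in either library and 3.66% of those at 1 FPKM in the control were higher by 2-fold. The integrin subunit ITGA2 had 14.1 FPKM in control cells and 59.1 FPKM after knockdown (1.996), ITGA11 had 2.37 and 8.05 FPKM (1.43), and ITGA1 had 0.605 and 2.96 FPKM (1.30). Their common partner ITGB1 had 762 and 391 FPKM (-0.96), and the difference was -1.03, past 2-fold lower, with its highest transcript alone. DDR1, a kinase receptor for collagen, differed by 0.56. Of 9 genes of collagen breakdown, 5 reached 1 FPKM, with 2 higher by 2-fold, none lower and a median of 0.69. MMP9 and MMP14 reached 1 FPKM only in the knockdown library and so had to be higher, and of the other 3 genes 1 was higher by 2-fold. MMP2, which degrades type IV collagen, had 4.35 FPKM in control cells and 31.2 FPKM after knockdown (2.59), and MMP9, of like activity, had 0.0477 and 1.28 FPKM (1.12). MMP14 differed by 0.53 (1.19 with a pseudocount of 0.1 FPKM) and CTSL, a lysosomal protease, by -0.05 (0.06 after rescaling and 0.12 with mitochondrial genome genes left out). The 13 housekeeping genes had a median of -0.15, with B2M (0.57) and GUSB (0.13) the highest and TFRC (-0.56) and TBP (-0.48) the lowest, and none differed by 2-fold.

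**Figure D5:**
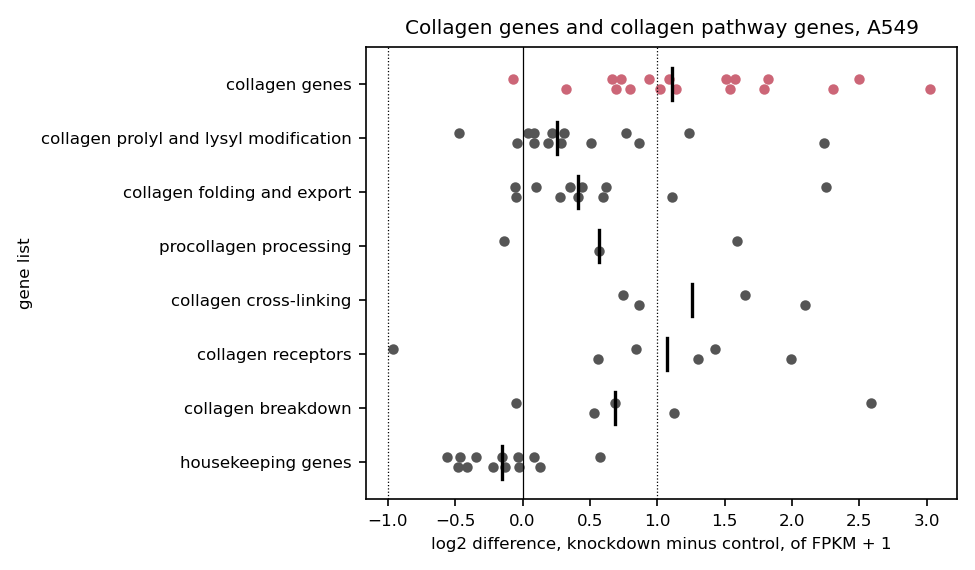
Difference of each gene at 1 FPKM or more, as log2 of (FPKM + 1), knockdown minus control, for the collagen genes (red) and 7 other lists (grey), with a bar at each median, a line at 0 and dotted lines at 2-fold. The collagen median is 1.11, those of modification and folding genes are 0.26 and 0.41, and that of housekeeping genes is -0.15.

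Markers of cells that make much collagen were checked beside these values. Of 10 fibroblast genes, 9 were in the table and 3 reached 1 FPKM, and their summed level was 23.8 FPKM in control cells and 50.1 FPKM after knockdown. THY1 went from 5.73 to 26.0 FPKM (2.003), FBN1 from 3.75 to 13.5 FPKM (1.61) and TWIST2 from 13.98 to 9.60 FPKM (-0.50). DCN and POSTN were listed at 0 in both libraries, LUM had 0.0540 and 0.131 FPKM, and PDGFRA had 0.248 and 0.718 FPKM. PDGFRB and FAP were listed at 0 in control cells, with 0.103 and 0.0219 FPKM after knockdown. Of 7 smooth muscle and pericyte genes, 2 reached 1 FPKM, ACTA2 (0.82) and NOTCH3 (0.24), with sums of 19.4 and 31.6 FPKM. CNN1 and DES were listed at 0 in control cells and at 0.647 and 0.645 FPKM after knockdown. CSPG4 had 0.00616 and 0.255 FPKM, MYH11 had 0.00860 and 0.0268 FPKM, and RGS5 had 0.434 and 0.409 FPKM. Of 8 endothelial genes only ESAM reached 1 FPKM, at 3.04 and 18.5 FPKM, whereas VWF, KDR, CLDN5 and EMCN were listed at 0 in both. PECAM1, CDH5 and TEK were listed at 0 in control cells and at 0.125, 0.211 and 0.0683 FPKM after knockdown. Of 8 blood and immune genes, 3 reached 1 FPKM, CD68 (1.76), CD79A (0.81) and CD14 (0.75). CD79A reached it only in the knockdown library, and PTPRC had 0 and 0.0470 FPKM. Of 7 chondrocyte and osteoblast genes, 2 reached 1 FPKM, SOX9 (-0.30) and MATN3 (0.41), with sums of 17.6 and 17.4 FPKM. The part of such cells in the collagen differences was not tested.

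Keratins were abundant, other epithelial genes were low in control cells, and alveolar genes were low or listed at 0 in both libraries. Of 9 epithelial genes, 8 reached 1 FPKM, 2 of them, CLDN4 and CLDN7, in the knockdown library alone. KRT7 was the highest, at 1880 and 2446 FPKM. KRT19 (1.11) and CLDN4 (0.569 and 22.3 FPKM, 3.89) were higher by 2-fold, KRT18 (-1.02) was lower by 2-fold, and KRT8 differed by -0.89. EPCAM had 2.74 and 2.75 FPKM, CDH1 had 7.70 and 6.54 FPKM, and the epithelial splicing regulator ESRP1 had 0.0142 and 0.0546 FPKM. Of 6 alveolar genes only AGER reached 1 FPKM (-0.13), and NKX2-1, SFTPA1 and SFTPB were listed at 0 in both libraries. SFTPC was listed at 0 in control cells and at 0.354 FPKM after knockdown, and NAPSA had 0.617 and 0.479 FPKM. RBM4 itself had 59.4 FPKM in control cells and 30.6 FPKM after knockdown, 51.5% of the control (-0.93; -1.45 with its highest transcript alone). The libraries added up to 671529 FPKM in control cells and 622366 FPKM after knockdown, and their depth in reads is unknown, so no counting interval could be given.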

How the data were processed

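Messenger RNA was measured in 2 A549 libraries, 1 control and 1 RBM4 knockdown. The authors deposited FPKM for 79989 transcripts of genes that the table types as protein-coding. CASAVA 1.8.2, TopHat and Cufflinks with build hg38 are named in the submitters' processing notes, without role or order. The annotation, any strand setting and any filter are not given in the sources used here. Multi-mapped and overlapping reads can shift the FPKM of single transcripts.

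FPKM was summed per symbol (pandas 2.3.3, Python 3.11.15), genes at 1 FPKM or more in either library were kept, and differences were log2 of FPKM plus 1. The counting of 2-fold genes was checked on simulated data with known differences, which is no test of the groups. With 1 library per group no such test was possible. Gene positions, lengths and exon overlaps came from GENCODE release 29, which holds 165 of the 166 collagen transcripts. Upstream windows (250 bases before to 50 after a start) came from RefSeq, which has none here for COL1A1, COL1A2, COL2A1, COL3A1, COL5A2, COL6A1, COL6A5, COL8A1, COL9A3, COL14A1, COL20A1 and COL22A1. The members, families and lists were chosen with earlier results of these data known. Every collagen gene at 1 FPKM is named, and of the other lists all members past 2-fold and the 2 highest and 2 lowest. Further members were named after their values were seen. Alternatives were pseudocount, filter, scaling and highest transcript, the last taken in each library separately. Chosen after seeing the data were filters on the control or mean and the removal of transcripts under 1000 bases. The 3 value columns of the H1299 table were not used, and results planned for H1299 were not computed.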

Additional observations from a re-analysis of the deposited data

How the results depend on the processing

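The 2-fold collagen count was 11 higher and ranged from 8 to 12 over the 10 alternatives, and it was 0 lower in each. It was 8 of 17 with the highest transcript alone and with transcripts under 1000 bases left out. It was 9 of 13 at a minimum of 5 FPKM and 9 of 16 at 1 FPKM in the control. In the same order, the counts higher over all genes were 535 of 11928, 506 of 11448, 413 of 9729 and 428 of 11702. The median of the collagen genes kept was 1.11 and ranged from 0.947 to 1.61, except without a filter, where 26 low genes enter and it was 0.29. Over all genes the count higher was 985 with a pseudocount of 0.1 FPKM, and the count lower was 418 with that pseudocount and 176 with mitochondrial genome genes left out, against 607 and 275. COL4A1, COL4A2, COL5A1, COL6A1, COL6A2, COL7A1 and COL1A1 stayed at 2-fold or more under all alternatives. COL4A6 was 0.87 and COL11A1 0.95 with the highest transcript alone, and COL16A1 was 1.11 with a pseudocount of 0.1 FPKM.

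Results that changed sign did so near 0. After rescaling to 1 total, COL12A1 was 0.00816, CTSL 0.0612, MIA3 0.0475, P3H4 0.0631 and PREB 0.0584. With mitochondrial genome genes left out, COL12A1 was 0.0480, CTSL 0.116, MIA3 0.101, P3H4 0.115, PCOLCE2 0.0123 and PREB 0.112. With the highest transcript alone, P3H4 was 0.276 and PREB 0.0318, and without short transcripts P3H4 was 0.161. The cause was not tested. No paired analysis was possible because each group has 1 library and no test was made. The read depth is unknown, so the error of low values cannot be given.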

Other observations

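Genes that carry a short collagen repeat but fall outside the collagen naming rule were looked at after the data were seen. Of 25 such genes, 24 were in the table and 7 reached 1 FPKM in either library. Of these 7, 2 were higher by 2-fold and none was lower by that much. Among all genes kept, 4.96% were higher and 2.25% lower by 2-fold, and the count for the 7 is a description only. CCBE1, a secreted factor of lymphatic vessel growth, had 2.05 FPKM in control cells and 7.31 FPKM after knockdown (log2 difference 1.45). C1QTNF1, a secreted C1q-related protein, had 13.6 and 33.6 FPKM (1.24). The other 5 were under 2-fold: CTHRC1, a secreted repeat protein, had 0.490 and 1.78 FPKM (0.90) and reached 1 FPKM only after knockdown, the scavenger receptor gene SCARA3 had 29.6 and 36.2 FPKM (0.28), EMILIN2 had 1.09 and 0.871 FPKM (-0.16), C1QTNF6 had 11.5 and 7.47 FPKM (-0.56) and SCARA5 had 1.66 and 0.575 FPKM (-0.75). The median of the 7 was 0.28, beside 1.11 for the collagen genes kept and -0.04 for all genes kept.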
